A study of Mus musculus with 20 samples.

Results

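Ferritin is the protein cage in which cells store iron, and the genes described here are those that build it, empty it, load it and sense the iron around it. They comprise 8 genes, chosen by name for these roles, of 23420 genes in the count table, and all 8 were among the 13590 genes with enough counts to be tested. The ferritin heavy chain *Fth1* and light chain *Ftl1* form the cage, *Ncoa4* encodes the receptor that carries ferritin into autophagosomes for breakdown, *Aco1* and *Ireb2* encode the iron regulatory proteins IRP1 and IRP2, *Fbxl5* encodes the iron-sensing subunit of the ubiquitin ligase that degrades IRP2, and *Pcbp1* and *Pcbp2* encode chaperones that deliver iron to ferritin.

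Messenger RNA was measured in whole hearts of 20 wild type male C57BL/6 mice (C57BL/6J in the study's methods) aged 9 weeks. The control group held 10 mice on a control diet, and the iron-deficient and anemic group (IDA mice) held 10 mice on an iron-deficient diet, both fed for 6 weeks from 3 weeks of age. The labels set a limit of 2 ppm on the iron of the deficient diet, but 1 field gives it as below that limit and another as above it. In the study's methods the iron of the deficient diet is a range that starts at 2 ppm. The control diet is there called iron-adjusted and holds more iron. No allele or drug was used in either group. The hearts were not sorted into cell types, so fewer cells of a type and less RNA per cell cannot be told apart.

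Iron regulatory proteins control their target mRNAs chiefly after transcription. When iron is scarce, IRP1 and IRP2 bind a hairpin called the iron responsive element (IRE). Binding in the 5′ untranslated region (UTR), as in the ferritin mRNAs, blocks translation, and binding in the 3′ UTR, as in the transferrin receptor mRNA, protects the message from decay. IRP1 loses its RNA binding when it takes up an iron-sulfur cluster and becomes cytosolic aconitase, whereas IRP2 is degraded after ubiquitination by the ligase that holds FBXL5. The counts report mRNA levels and carry no information on the ferritin or IRP proteins.

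The hairpins are shown to mark which of the 8 mRNAs hold a sequence of the form that the sensors bind. A search of GENCODE transcripts (mm10) looked on the sense strand for an unpaired C, 5 bases, the loop CAGTGN and 5 bases able to pair with the first 5, with at least 4 of the 5 pairs below the C. It found a match in 30 of 21877 protein-coding genes (0.137%), of which 6 had it in the 5′ UTR and 11 in the 3′ UTR. Among the 8 genes, *Fth1* and *Ftl1* had a match, each in the 5′ UTR, and the other 6 had none in these transcripts. A match or its absence is not a test of binding by the sensors. *Slc40a1*, which encodes the iron exporter ferroportin, and *Tfrc*, the transferrin receptor, are given for comparison. Capitals mark the loop, and each window is 27 bases long.
Fth1, chr19:9982733-9982759, plus strand, 5′ UTR: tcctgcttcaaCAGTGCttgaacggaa
Ftl1, chr7:45459780-45459806, minus strand, 5′ UTR: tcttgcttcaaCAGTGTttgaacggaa
Slc40a1, chr1:45925466-45925492, minus strand, 5′ UTR: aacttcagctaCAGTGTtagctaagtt
Tfrc, first of 4 in the 3′ UTR, chr16:32631220-32631246, plus strand: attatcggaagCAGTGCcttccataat

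Library totals are the read pairs counted on genes after the authors removed duplicates. They lay between 6797180 and 8960688 read pairs in control mice (median 7902932) and between 6682177 and 7833916 in IDA mice (median 6806177). The totals of the groups differed (p = 0.00892, two-sided permutation test). Fold changes across the whole table followed gene length. The median log2 fold change (IDA over control) was 0.34 in the tenth of tested genes with the shortest exons (median 881 bp) and -0.53 in the tenth with the longest (median 7761 bp). Levels are in CPM, counts scaled to library size with TMM factors. Fold changes of the 8 genes are therefore given both after TMM scaling and after a correction that removes the trend on exonic length in every mouse. Control libraries had 145.7 to 211.0 CPM summed over 5 tested erythroid markers and IDA libraries 205.2 to 663.0 CPM, with 4 of the 5 higher, 1 lower, and the globins *Hba-a1* and *Hba-a2* at 0 counts in all libraries. A beta globin among the 5 averaged 40.2 CPM in control and 48.8 CPM in IDA hearts. The 0 counts are therefore not taken to mean that alpha globin mRNA was absent, and their cause was not tested. After the length correction 3 of the 5 were higher and 0 lower.

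After TMM scaling, 3 of the 8 genes were higher in IDA hearts (*Fth1*, *Ftl1* and *Pcbp1*), 3 were lower (*Ncoa4*, *Ireb2* and *Fbxl5*), and *Aco1* and *Pcbp2* did not pass an adjusted p of 0.05. Calls were common in these data. Of all tested genes, 35.0% were higher and 32.5% lower by the same test. The median log2 fold change of the 8 genes was 0.02, and that of all tested genes was also 0.02. When edgeR and DESeq2 each had to give p below 0.01, 2 of the 8 were higher and 3 lower, beside 30.6% and 29.2% of all tested genes. After the length correction 1 of the 8 was higher (*Aco1*) and the same 3 were lower, beside 31.5% and 23.5% of all tested genes, and the median of the 8 was -0.06 against 0.04 over all tested genes. The CPM values of the 2 groups did not overlap for 2 of the 8, both lower in IDA hearts (*Ncoa4* and *Ireb2*), and for none that was higher. Over all tested genes this held for 6.28% on the lower side and 4.97% on the higher side.

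**Figure D1:**
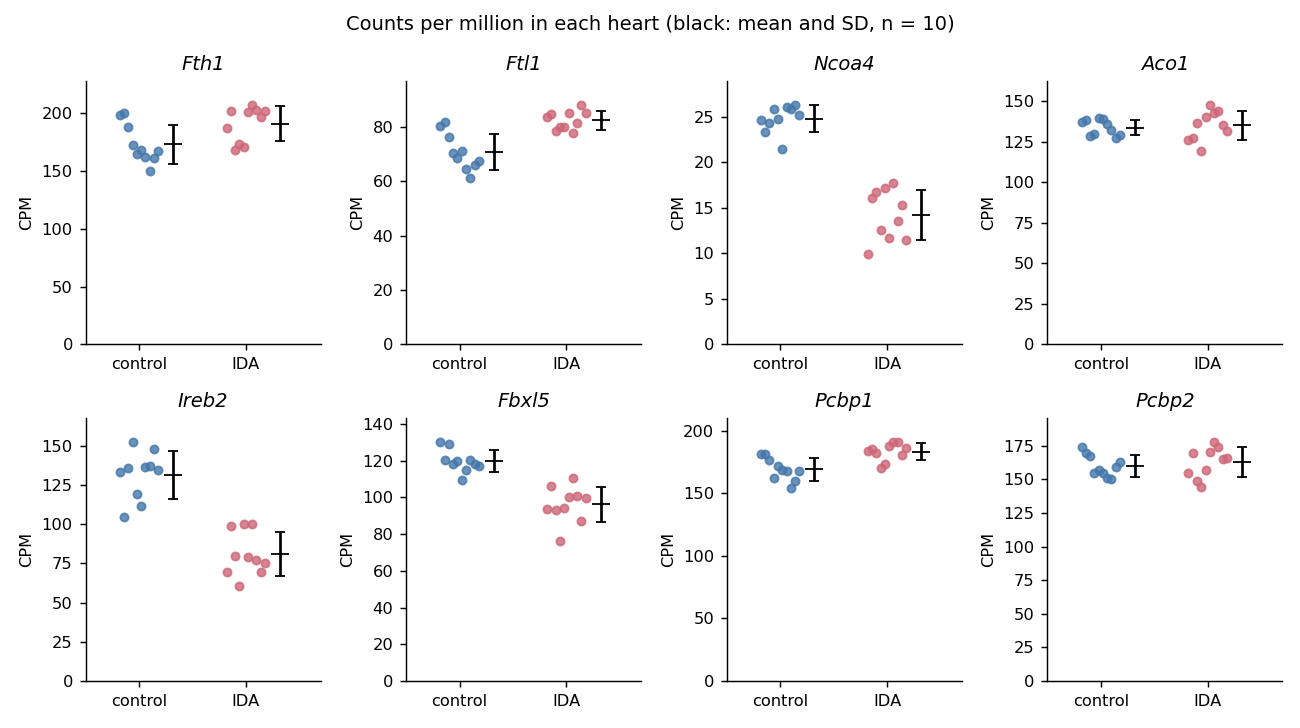
CPM (vertical axis, from 0) of the 8 genes in each heart of the control (blue) and IDA (red) groups, 1 point per mouse, with the mean and SD of 10 mice in black. *Ncoa4* and *Ireb2* show 2 separate groups of points, from 21.4 to 26.3 CPM against 9.92 to 17.8 CPM and from 104.9 to 152.8 CPM against 60.9 to 100.3 CPM, while the points of the other 6 genes overlap.

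*Ncoa4* had the largest difference of the 8. NCOA4 binds the ferritin heavy chain and delivers ferritin to the lysosome, the route by which stored iron is released. The gene lies on the plus strand of chromosome 14 (mm10, 32159892 to 32179363) with 3577 exonic bases. Control hearts ranged from 21.4 to 26.3 CPM with a median of 25.0, and IDA hearts from 9.92 to 17.8 CPM with a median of 14.4. Every IDA heart was below every control heart. The means were 24.77 ± 1.495 CPM and 14.2 ± 2.75 CPM (SD, n = 10 each), so the fitted level fell by 42.6% (log2 fold change -0.80, standard error (SE) 0.09, adjusted p = 3.31e-07, quasi-likelihood test of edgeR, adjusted by Benjamini and Hochberg's method across 13590 genes). Of all tested genes, 5.72% had a lower log2 fold change. Genes of similar length had a median of -0.11, and the length correction left *Ncoa4* at -0.67 (adjusted p = 8.80e-07), where 3.95% of tested genes were lower. A correction for length and GC content together gave -0.54 (adjusted p = 2.62e-06). Counts before scaling were small, from 156 to 230 read pairs in control mice and from 75 to 137 in IDA mice. Of the windows of 75 bases in the transcript with its longest coding sequence, 41.4% also occur in another annotated gene, the pseudogene model *Gm6768*, and its counts are uncertain to that extent.

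*Ireb2*, which encodes IRP2, was the second gene without overlap in CPM. It spans 54863755 to 54912534 on the plus strand of chromosome 9 and is the longest of the 8 at 5808 exonic bases. Control hearts lay between 104.9 and 152.8 CPM (median 135.5) and IDA hearts between 60.9 and 100.3 CPM (median 78.3). The narrowest gap was between the lowest control heart and the highest IDA heart. The means were 131.5 ± 15.1 CPM and 81.1 ± 14.0 CPM (SD, n = 10 each), with a log2 fold change of -0.70 (standard error 0.09, adjusted p = 6.45e-07). Genes of this length had a median of -0.32. The length correction moved *Ireb2* to -0.34 (standard error 0.06, adjusted p = 4.30e-05), and length and GC content together to -0.11 (adjusted p = 0.0345). The direction and the call held under each, but the size depended on which correction was used. The separation of the groups did not hold after the length correction. The highest IDA heart was then at a log2 CPM of 6.75 and the lowest control heart at 6.68.

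*Aco1*, which encodes IRP1, showed no such fall. It lies on the plus strand of chromosome 4 (40143265 to 40199009) with 4319 exonic bases. Control hearts held 127.3 to 139.8 CPM (median 134.1) and IDA hearts 119.6 to 147.8 CPM (median 136.0), the IDA range enclosing the control range. Its log2 fold change came to 0.01 (SE 0.04, adjusted p = 0.746). Genes of similar length had a median of -0.20, and after the length correction *Aco1* was higher in IDA hearts by 0.24 on the log2 scale (adjusted p = 0.000120), with 0.15 after length and GC content (adjusted p = 0.00362).

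The balance of the 2 sensors was compared within each heart as a ratio of read pairs per exonic base, which needs no scaling to the library total. The *Ireb2* to *Aco1* ratio ranged from 0.564 to 0.874 in control hearts (median 0.760) and from 0.378 to 0.579 in IDA hearts (median 0.418). The highest IDA heart was above the lowest control heart, and the other 9 IDA hearts were below all controls. The mean log2 ratio differed by -0.72 (two-sided permutation test with 100000 resamples, p = 4.00e-05, adjusted p = 0.000160 over 4 ratios), and by -0.58 after the length correction (adjusted p = 0.000160 by the same permutation test). In terms of share, *Ireb2* gave 42.1% ± 3.60 of the per-base signal of the pair in control hearts and 30.7% ± 3.28 in IDA hearts (SD, n = 10 each). The ratio was not computed with length and GC content corrected together, where *Ireb2* was at -0.11 and *Aco1* at 0.15 (log2 fold change).

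*Fbxl5* lies on the minus strand of chromosome 5 (43744618 to 43782149) with 3328 exonic bases. Its protein holds iron in a hemerythrin-like domain and recognizes IRP2 for the ubiquitin ligase. Control hearts ranged from 109.7 to 130.4 CPM (median 119.0) and IDA hearts from 76.4 to 110.5 CPM (median 96.9). In 9 of 10 IDA hearts the level was below the lowest control heart. Its log2 fold change came to -0.32 (SE 0.05, adjusted p = 1.39e-05) and -0.22 after the length correction (adjusted p = 0.00105). Genes of similar length had a median of 0.00. With length and GC content corrected together the difference was 0.00 (adjusted p = 0.996), so the call did not hold under that correction.

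After TMM scaling and after the length correction, *Ireb2* and *Fbxl5*, the target and its ligase subunit, were both lower, and *Ireb2* by more. With length and GC content corrected together, *Ireb2* was at -0.11 and *Fbxl5* at 0.00, and their ratio was not computed under that correction. The *Ireb2* to *Fbxl5* ratio ranged from 0.4998 to 0.742 in control hearts (median 0.629) and from 0.425 to 0.609 in IDA hearts (median 0.457). All 10 IDA hearts were below the control mean, and 7 were below every control heart. The mean log2 ratio differed by -0.39 (permutation test, adjusted p = 0.000560) and by -0.12 after the length correction (permutation test, adjusted p = 0.0451).

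**Figure D2:**
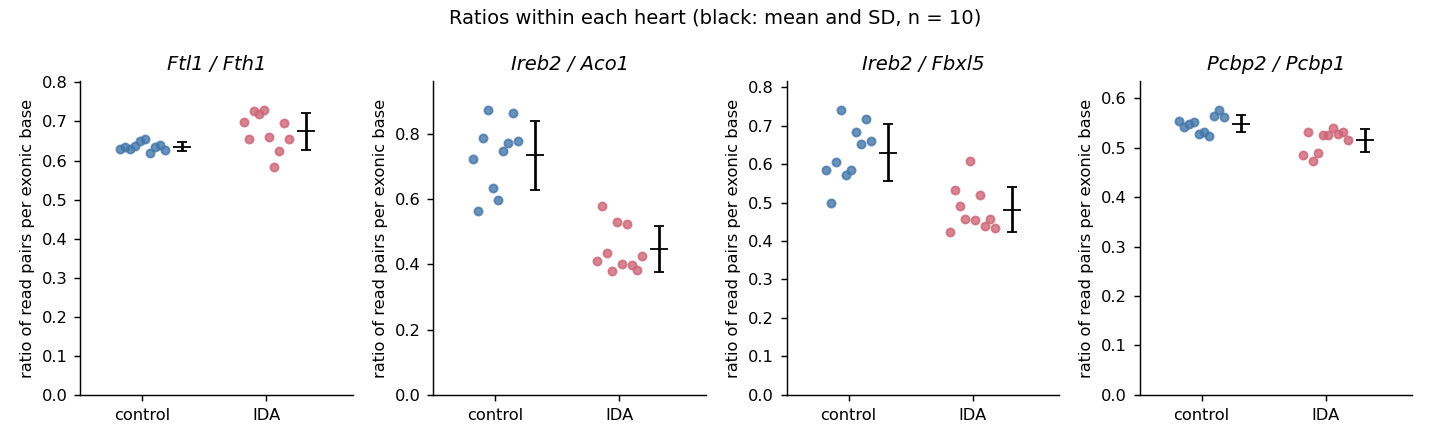
Ratio of read pairs per exonic base (vertical axis, from 0) for 4 pairs of genes in each heart, control in blue and IDA in red, with the mean and SD of 10 mice in black. The *Ireb2* to *Aco1* ratio shows the widest separation, with means of 0.734 and 0.446, and the *Ftl1* to *Fth1* ratio spreads more among IDA hearts (SD 0.0478) than among control hearts (SD 0.0105).

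*Fth1*, the ferroxidase subunit that oxidizes iron as it enters the cage, lies on the plus strand of chromosome 19 (9980600 to 9985111) with 1511 exonic bases. Control hearts ranged from 150.2 to 200.03 CPM (median 168.0) and IDA hearts from 168.4 to 207.4 CPM (median 199.3). The ranges overlapped widely, and 7 of 10 IDA hearts were above the control mean. Its log2 fold change came to 0.14 (SE 0.05, adjusted p = 0.0251). Genes of this length had a median of 0.27, and after the length correction the value was -0.06 (adjusted p = 0.343). In 100 fits without 1 control and 1 IDA mouse, the call was made in 54, with adjusted p up to 0.114. It was kept in every fit that left out control mouse 1, 2 or 3 or IDA mouse 3, 4 or 5, and was lost in some of the fits without any other mouse.

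The counts of *Fth1* before scaling hardly varied. They lay between 1289 and 1360 read pairs in control mice and between 1331 and 1414 in IDA mice, with coefficients of variation of 1.729% and 1.5996%, while library totals had 8.76% and 6.22%. The variance was 0.395 and 0.351 of the mean, below the value of 1 that counting alone gives. Of all tested genes, 1.41% had a ratio below 1 in both groups, and of the 8 genes *Fth1* was the 1 that did. Its density of 0.875 read pairs per exonic base in control hearts was above that of 97.1% of tested genes, and the authors had removed duplicate reads before counting. Its CPM therefore moved opposite to the library total, which was larger in control mice. With library size as a covariate the log2 fold change was -0.02 (adjusted p = 0.438).

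**Figure D3:**
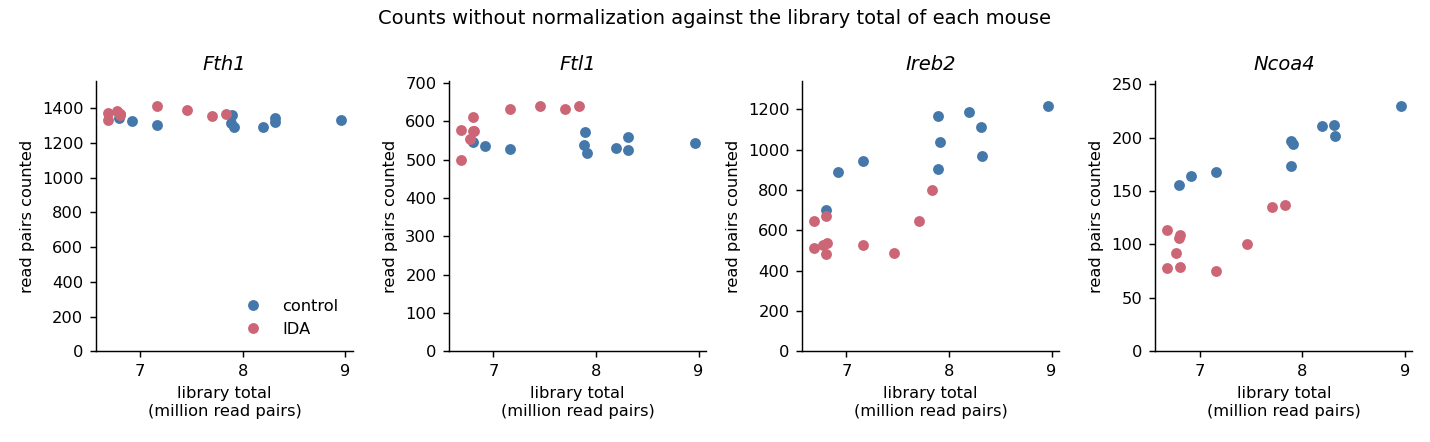
Read pairs counted on 4 genes (vertical axis, from 0, no scaling) against the library total of each mouse (horizontal axis), control in blue and IDA in red, 1 point per mouse. *Fth1* stays between 1289 and 1414 read pairs at every library total, whereas *Ireb2* spans 482 to 1219 and *Ncoa4* 75 to 230 read pairs.

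*Ftl1*, the light chain, which promotes the mineral core inside the cage, lies on the minus strand of chromosome 7 (45457944 to 45459886) and is the shortest of the 8 at 970 exonic bases. Control hearts ranged from 61.1 to 81.7 CPM (median 69.6) and IDA hearts from 77.6 to 88.1 CPM (median 82.6). All 10 IDA hearts were above the control mean and 5 were above every control heart. Its log2 fold change came to 0.22 (SE 0.05, adjusted p = 0.000327), in a length class whose median was 0.34. It was -0.07 after the length correction (adjusted p = 0.157) and -0.20 after length and GC content (adjusted p = 0.00129), so its direction turned with the correction. With library size as a covariate it was 0.11 (adjusted p = 0.0160). Of the windows of 75 bases in its transcript, 84.8% also occur in other annotated genes, among them *Ftl1-ps1*, *Ftl1-ps2* and *Ftl2-ps*, so its counts are uncertain.

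The *Ftl1* to *Fth1* ratio was 0.636 ± 0.0105 in control hearts and 0.675 ± 0.0478 in IDA hearts (SD, n = 10 each). It ranged from 0.620 to 0.656 and from 0.583 to 0.730, with 6 IDA hearts above and 1 below every control heart. The log2 difference was 0.08 (permutation test, adjusted p = 0.0257) and -0.01 after the length correction (permutation test, adjusted p = 0.887). The call was made in 57 of 100 comparisons without 1 control and 1 IDA mouse (exact permutation tests). It was kept in each one without control mouse 6 or without IDA mouse 2, 6, 7, 8 or 10, and was lost in some of the comparisons without any other mouse. The counts of *Fth1* hardly varied and those of *Ftl1* are uncertain from shared sequence, which limits what this ratio can show.

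*Pcbp1* and *Pcbp2* encode RNA-binding proteins that also carry ferrous iron to ferritin. *Pcbp1*, a gene of 1 exon on the minus strand of chromosome 6 (86524497 to 86526165, 1669 bases), ranged from 154.1 to 181.6 CPM in control hearts (median 168.3) and from 170.5 to 191.3 CPM in IDA hearts (median 184.8). All 10 IDA hearts were above the control mean, 7 of them above every control heart. Its log2 fold change came to 0.12 (SE 0.03, adjusted p = 0.00511), with a median of 0.20 in its length class, and was -0.06 after the length correction (adjusted p = 0.145) and -0.21 after length and GC content (adjusted p = 0.000335). With library size as a covariate it was 0.04 and did not pass (adjusted p = 0.190).

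*Pcbp2*, on the plus strand of chromosome 15 (102470632 to 102500059, 2880 exonic bases), ranged from 149.96 to 173.9 CPM in control hearts (median 158.0) and from 144.1 to 178.1 CPM in IDA hearts (median 165.7). The IDA range enclosed the control range. Its log2 fold change came to 0.03 (SE 0.04, adjusted p = 0.601), 0.06 after the length correction (adjusted p = 0.274) and 0.25 after length and GC content (adjusted p = 0.000148). Exons of *Map3k12* on the other strand overlap 1571 of its 2880 bases, and strand was not used in counting, so reads of the 2 genes cannot be told apart there. The *Pcbp2* to *Pcbp1* ratio was 0.548 ± 0.0172 in control hearts and 0.515 ± 0.0233 in IDA hearts (SD, n = 10 each). It was lower in IDA hearts before the length correction (log2 difference -0.09, permutation test, adjusted p = 0.00144) and higher after it (0.12, permutation test, adjusted p = 0.00180).

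**Figure D4:**
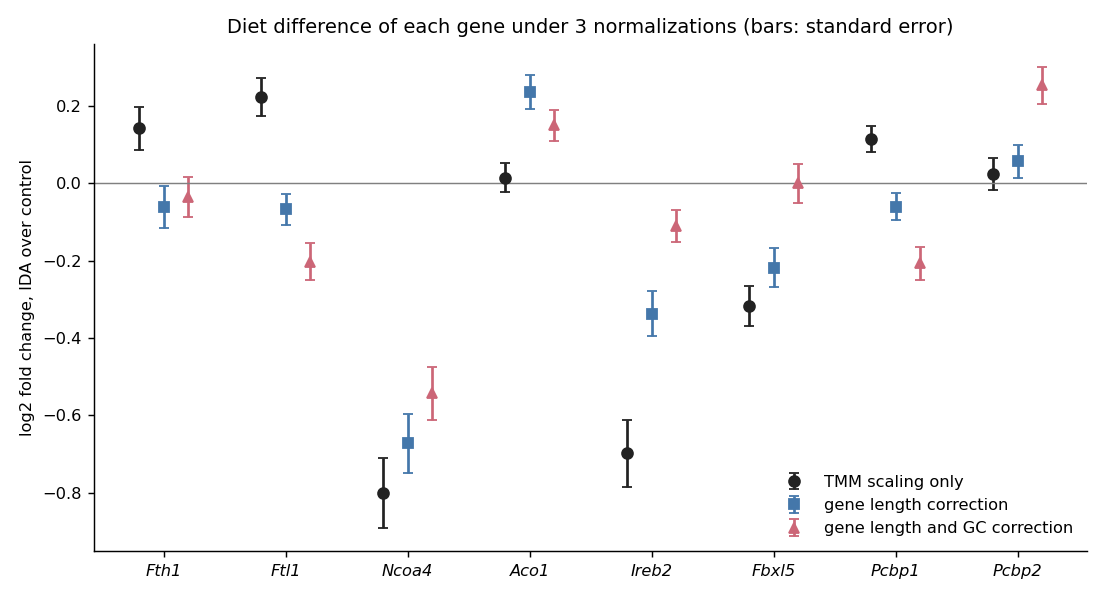
Log2 fold change of IDA over control hearts (vertical axis) for the 8 genes, after TMM scaling only (black circles), after the gene length correction (blue squares) and after the correction for length and GC content (red triangles), with bars for 1 standard error. *Ncoa4* lies between -0.80 and -0.54 in all 3, whereas *Fth1*, *Ftl1* and *Pcbp1* go from above 0 to below 0.

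Per kilobase of exon, *Fth1* had the highest level of the 8 in both groups, at 114.7 ± 11.1 CPM per kb in control hearts and 126.6 ± 9.99 in IDA hearts (SD, n = 10 each). *Pcbp1* followed at 101.4 ± 5.39 and 109.8 ± 4.13 CPM per kb, and the ranges of these neighbours overlapped in both groups. *Ftl1* came next at 72.9 ± 6.95 and 85.05 ± 3.54, then *Pcbp2* at 55.6 ± 2.82 and 56.5 ± 3.92 CPM per kb, without overlap between neighbours. In control hearts the order went on with *Fbxl5* (36.0 ± 1.84), *Aco1* (31.0 ± 1.116), *Ireb2* (22.6 ± 2.61) and *Ncoa4* (6.92 ± 0.418 CPM per kb), again without overlap between neighbours. In IDA hearts *Aco1* (31.3 ± 2.07) stood above *Fbxl5* (28.9 ± 2.92), with overlapping ranges, and *Ireb2* (14.0 ± 2.42) and *Ncoa4* (3.98 ± 0.768 CPM per kb) again came last without overlap. This order rests on the counts as deposited, and carries the uncertainty of *Ftl1*, *Ncoa4* and *Pcbp2* from shared or overlapping sequence and the near-constant counts of *Fth1*.

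The library numbers in the sample names formed 2 runs of consecutive numbers, which the labels do not describe. The higher-numbered run held 5 control and 3 IDA mice and the lower-numbered run 5 control and 7 IDA mice. *Ncoa4* was lower by like amounts in both, with log2 fold changes of -0.80 (adjusted p = 0.00416) and -0.81 (adjusted p = 9.89e-05). *Ireb2* gave -0.66 (adjusted p = 0.00437) and -0.73 (adjusted p = 0.000127), and *Fbxl5* gave -0.35 (adjusted p = 0.00423) and -0.28 (adjusted p = 0.00444). *Fth1* gave -0.01 in the higher-numbered run (adjusted p = 0.962) and 0.26 in the lower-numbered run (adjusted p = 0.00163). *Ftl1* gave 0.11 (adjusted p = 0.239) and 0.32 (adjusted p = 0.000180), and *Pcbp1* gave 0.06 (adjusted p = 0.410) and 0.16 (adjusted p = 0.00706), so none of the 3 genes called higher passed in the higher-numbered run. The difference between the runs was not tested. Control library totals had a median of 7161969 in the first and 8192364 in the second of these runs, and IDA totals 7159515 and 6800812.

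With the erythroid marker score as a covariate, *Ncoa4* was at -1.02 (adjusted p = 4.98e-05), *Ireb2* at -0.80 (adjusted p = 0.000155) and *Fbxl5* at -0.28 (adjusted p = 0.00872). *Ftl1* stayed past the threshold at 0.21 (adjusted p = 0.0311), and *Fth1* did not at 0.15 (adjusted p = 0.168). Of 10 macrophage markers, 5 were higher, 2 lower and 3 did not pass, and their summed level was 742 to 826 CPM in control libraries and 750 to 904 CPM in IDA libraries. Of 9 cardiomyocyte markers 4 were higher, 1 lower and 4 did not pass, with sums of 4559 to 5507 CPM and 4102 to 5640 CPM, so the hearts carried their labelled tissue's markers. After the length correction 3 macrophage markers were higher and 1 lower, and the median log2 fold change went from 0.27 to 0.03. For cardiomyocyte markers 2 were then higher and 5 lower, and the median went from 0.08 to -0.13. The part of macrophages and cardiomyocytes in the results was not tested.

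Relations between paired genes across the mice of 1 diet were computed for 4 pairs in 2 groups (log2 CPM, n = 10 mice each, permutation tests, adjusted over the 8 relations). *Fth1* and *Ftl1* were closely related in control hearts (Pearson's r = 0.98, adjusted p = 0.000160, Spearman's rho = 0.96, adjusted p = 0.000320, and r = 0.96 without the 2 mice farthest from the median). In IDA hearts r was 0.45 (permutation test, adjusted p = 0.207, rho = 0.15, adjusted p = 0.778, r = 0.13 without 2 mice). All CPM values share the library total as divisor. The counts of *Fth1* were near constant, and in control hearts those of *Ftl1* nearly so (coefficient of variation 3.08%, variance 0.512 of the mean), so the CPM of both varied there mainly with the shared library total. *Pcbp1* and *Pcbp2* were related in control hearts (r = 0.82, permutation test, adjusted p = 0.0120, rho = 0.81, adjusted p = 0.0191, r = 0.67 without 2 mice) and in IDA hearts (r = 0.80, permutation test, adjusted p = 0.0120, rho = 0.88, adjusted p = 0.00520, r = 0.72 without 2 mice). Their counts before scaling also varied less than the library totals. Coefficients of variation were 5.67% and 5.25% in control mice (totals 8.76%) and 6.08% and 3.25% in IDA mice (totals 6.22%). How much of their r comes from the shared library total was not tested.

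*Aco1* and *Ireb2* were inversely related in control hearts (r = -0.78, permutation test, adjusted p = 0.0120, rho = -0.73, adjusted p = 0.0408, r = -0.76 without 2 mice), and r was 0.48 in IDA hearts (permutation test, adjusted p = 0.207, rho = 0.58, adjusted p = 0.116, r = 0.29 without 2 mice). *Fbxl5* and *Ireb2* gave r = 0.21 in control hearts (permutation test, adjusted p = 0.572, rho = -0.04, adjusted p = 0.919, r = -0.13 without 2 mice) and r = 0.76 in IDA hearts (permutation test, adjusted p = 0.0120, rho = 0.68, adjusted p = 0.0540, r = 0.48 without 2 mice), so the latter rests in part on 2 mice. Differences of r between the diets were not tested. After the length correction, *Aco1* with *Ireb2* gave r = -0.67 in control and 0.03 in IDA hearts, so the positive value in IDA hearts was not seen there. The corrected r of the other pairs, in control and IDA hearts, was 0.97 and 0.58 for *Fth1* with *Ftl1*, 0.14 and 0.77 for *Fbxl5* with *Ireb2*, and 0.77 and 0.81 for *Pcbp1* with *Pcbp2*. Within the runs of library numbers, the 7 IDA mice of the lower-numbered run were enough for a value. There r, before the length correction, was 0.29 for *Fth1* with *Ftl1*, 0.69 for *Aco1* with *Ireb2*, 0.75 for *Fbxl5* with *Ireb2* and 0.94 for *Pcbp1* with *Pcbp2*. The other sets held 5 mice or fewer.

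The other mRNAs listed for a hairpin in the 5′ UTR moved in both directions. Of 6 genes listed for it, *Fth1* and *Ftl1* included, 3 were higher, 2 lower and 1 did not pass, with a median log2 fold change of 0.12. The corrected counts were 1 higher and 1 lower, with a median of -0.06. *Slc40a1* averaged 74.5 ± 9.84 CPM on the control diet and 39.6 ± 9.43 CPM on the deficient diet (SD, n = 10 each), with a fitted difference of -0.91 on the log2 scale (adjusted p = 6.00e-07) and -0.81 after the length correction. *Alas2*, the erythroid enzyme that starts heme synthesis and 1 of the 5 erythroid markers above, had 1.42 (adjusted p = 9.10e-07) and 1.30 after the length correction. *Epas1*, which encodes HIF-2α, had -0.42 (adjusted p = 6.33e-05) and -0.09 after the length correction (adjusted p = 0.227). The search found no hairpin of this form in *Epas1*.

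Of 3 genes listed for a hairpin in the 3′ UTR, 1 was higher, 1 lower and 1 did not pass, with a median of 0.04. The corrected counts were 2 higher and 1 lower, with a median of 0.40. *Tfrc*, with 4 hairpins, was higher by 0.41 on the log2 scale (adjusted p = 0.00104) and by 0.69 after the length correction. *Slc11a2*, an iron importer, had 0.04 (adjusted p = 0.325), and 0.40 after the length correction (adjusted p = 1.30e-06). *Cdc14a*, a phosphatase, had -0.86 (adjusted p = 0.000121), and -0.62 after the length correction (adjusted p = 0.00185). The search found no hairpin of this form in *Slc11a2* or *Cdc14a*.

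The partners of *Ncoa4* in autophagy were listed as 19 genes, of which 13 were higher, 3 lower and 3 did not pass, with a median log2 fold change of 0.12, and after the length correction 6 were higher and 1 lower with a median of 0.04. *Tfeb*, a transcription factor for lysosomal genes, had the largest value at 0.37 (adjusted p = 1.03e-05) and kept 0.40 after the correction. *Gabarapl2*, of the family that lines autophagosomes, had 0.33 (adjusted p = 9.97e-05) and 0.04 after it. *Herc2*, the ubiquitin ligase that marks NCOA4 for degradation, had the smallest value at -0.75 (adjusted p = 9.31e-07) and 0.02 after the correction (adjusted p = 0.727). *Rb1cc1*, a scaffold of the autophagy-starting kinase, had -0.45 (adjusted p = 5.32e-06) and 0.00 after it.

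Of 6 other subunits and regulators of the ligase that holds FBXL5, 4 were higher, 1 lower and 1 did not pass, with a median log2 fold change of 0.24. After the length correction the median was 0.04 and 1 was higher, *Cand1*, the gene that was lower before it. None was called in the same direction in both fits. *Nedd8*, the modifier that activates cullins, had 0.35 (adjusted p = 1.52e-06) and *Ube2m*, its conjugating enzyme, 0.27 (adjusted p = 1.25e-05). *Cul1*, the scaffold, had -0.06 (adjusted p = 0.201) and *Cand1*, which exchanges subunits on cullins, had -0.24 (adjusted p = 2.91e-05). After the length correction these 4 were at -0.02, 0.08, 0.01 and 0.28.

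Genes of cytosolic iron-sulfur cluster assembly, the machinery that turns IRP1 into aconitase, comprised 9 genes. Of these, 7 were higher and 2 did not pass, with a median log2 fold change of 0.28. After the length correction 7 were higher with a median of 0.28, but they were not the same 7, and 5 of the 9 were higher in both fits. *Fam96a* went from 0.29 to 0.04 (adjusted p = 0.336) and *Fam96b* from 0.28 to -0.07 (adjusted p = 0.210), both named after their values were seen. *Nubp2* had 0.46 (adjusted p = 5.09e-07) and *Nubp1* 0.39 (adjusted p = 0.000280), both scaffold proteins on which clusters are built, and the corrected values were 0.23 and 0.30. The smallest values were those of *Ndor1*, 0.00 (adjusted p = 0.944), and *Mms19*, 0.10 (adjusted p = 0.0849), which were at 0.28 each after the correction (adjusted p = 0.000474 and adjusted p = 0.000329).

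Relatives and clients of the PCBP chaperones comprised 8 genes, of which 5 were higher, 1 lower and 2 did not pass, with a median log2 fold change of 0.29. After the length correction 5 were higher and none lower, with a median of 0.19, and 4 were higher in both fits. *Bola2*, a partner in iron-sulfur cluster transfer, had 0.58 (adjusted p = 3.01e-06) and *Dohh*, an iron enzyme that receives its metal from PCBP1, 0.44 (adjusted p = 4.70e-07). The corrected values were 0.18 and 0.22. *Hif1an*, an oxygen-sensing iron enzyme, had -0.34 (adjusted p = 1.98e-06) and 0.06 after the correction (adjusted p = 0.0940), and *Egln1*, a prolyl hydroxylase of the HIF pathway, had 0.07 (adjusted p = 0.159) and 0.19 after it (adjusted p = 0.00176).

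For each of the 8 genes, the tested genes most alike over the 20 mice after removing the diet means were found by Pearson's r, as a description over libraries that share their depth. They were *Hsp90ab1* and *Uqcrfs1* for *Fth1* (both r = 0.99), *H3f3a* (0.92) and *Ndufa3* (0.91) for *Ftl1*, *Zcchc6* (0.92) and *Elf2* (0.91) for *Ncoa4*, and *Afap1l1* (0.82) and *Tmem63b* (0.78) for *Aco1*. *Zdhhc17* (0.99) and *Cul5* (0.97) were nearest to *Ireb2*, *Fsd2* (0.90) and *Ywhag* (0.89) to *Fbxl5*, *Ank1* (0.93) and *Cox8a* (0.92) to *Pcbp1*, and *Ndufs1* (0.97) and *Mfn2* (0.96) to *Pcbp2*. After the length correction *Ank1* dropped to r = 0.11, while *Zdhhc17* kept 0.96, *Zcchc6* 0.87 and *Ndufs1* 0.97.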

How the data were processed

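Whole-heart mRNA of 10 control and 10 IDA mice was sequenced, with diets taken from the labels. Per the labels and the paper's methods, the authors used STAR on mm10, samtools to remove duplicates and featureCounts version 1.4.5-p1, unstranded, to count read pairs per gene. The deposited counts are not normalized. The methods exclude a contaminated mouse from each group without naming it, so all 20 were kept, and the fit was repeated for each of the 100 ways to drop 1 control and 1 IDA mouse.

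Genes reaching 1 CPM in 10 or more mice entered the test (R 4.3.3, edgeR 4.0.16, TMM, quasi-likelihood test, diet as the factor, Benjamini-Hochberg adjustment), with DESeq2 1.42.0 as an alternative. The length correction removes, mouse by mouse, a loess trend with span 0.5 and degree 1 of log2 deviations on log2 exonic length, whatever its source, entered as offsets. Ratios and relations used permutation tests with 100000 resamples. Coordinates are from the deposited table, and hairpins from GENCODE transcripts of the same build. Older symbols were matched in the table. Scripts were tested on simulated data.

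The 8 genes and the pathway and marker lists were chosen with earlier results of these data known. Named genes were the 8, the genes listed for IREs, and in each other list those with the 2 largest and 2 smallest fold changes, with the 2 most alike genes by correlation for each of the 8. Of the listed genes, 1 is not reported here. Alternatives were other scalings, filters and tests, corrections for length and GC content, covariates for library size and erythroid markers, and a replicate block. The runs of library numbers and the rule of p below 0.01 in both packages were added as alternatives after the data were seen. Library totals, which count read pairs on genes after duplicate removal and not all pairs sequenced, ranged from 6682177 to 8960688. At these totals a gene at 1 CPM has few read pairs. The p-values of the diet differences set them against the spread between these mice.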

Additional observations from a re-analysis of the deposited data

How the results depend on the processing

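Apart from the fits that left out mice, 86 of 112 fold changes and ratios under other settings kept their direction and side of the threshold, among them each value for *Ncoa4* and *Ireb2*. The gene length correction gave -0.061 for *Fth1*, -0.067 for *Ftl1*, -0.060 for *Pcbp1* and 0.24 for *Aco1* (log2 fold change), with 1 gene called higher beside 31.5% of all tested genes. It gave -0.0050 for the *Ftl1* to *Fth1* ratio and 0.12 for the *Pcbp2* to *Pcbp1* ratio. Correcting length and GC content gave -0.034 for *Fth1*, -0.20 for *Ftl1*, 0.15 for *Aco1*, 0.00045 for *Fbxl5* (adjusted p = 0.996), -0.21 for *Pcbp1* and 0.25 for *Pcbp2*. A library size covariate gave -0.021 for *Fth1*, -0.0029 for *Aco1*, 0.11 for *Ftl1*, 0.042 for *Pcbp1* (no longer called) and -0.070 for *Pcbp2*. With this covariate 1 of the 8 genes was called higher, beside 3959 of 13590 tested genes. The erythroid marker covariate gave 0.15 for *Fth1* (adjusted p = 0.168). The higher-numbered run of libraries, with 8 mice, gave -0.0055 for *Fth1*, 0.11 for *Ftl1*, -0.065 for *Aco1*, 0.061 for *Pcbp1* and -0.075 for *Pcbp2*, with none of these 5 past the threshold. The number of genes called higher was 2 in place of 3 (*Ftl1* and *Pcbp1*) with the erythroid covariate, beside 3699 of 13590 tested genes. With p below 0.01 in both packages it was the same 2, beside 30.6%. With length and GC content corrected, 2 other genes were called higher (*Aco1* and *Pcbp2*). The number called lower was then 4 in place of 3 (*Ncoa4*, *Ireb2*, *Ftl1* and *Pcbp1*). Of 13479 genes tested under that correction, 3699 were higher and 2570 lower. Leaving out a mouse from each group gave 0.097 to 0.19 for *Fth1*, -0.016 to 0.040 for *Aco1*, -0.010 to 0.057 for *Pcbp2* and 0.065 to 0.11 for the *Ftl1* to *Fth1* ratio. The cause of these shifts was not tested.

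Replicate numbers 1 to 10 are shared by the groups. Same-numbered mice deviated together (correlation over 0.1) in 3 of 10 pairs, with correlations from -0.28 to 0.26. These values were not set against those of mice with different numbers, so whether the numbers pair the mice cannot be decided here. A replicate block changed no call (*Fth1* 0.14, adjusted p = 0.0439, and *Ncoa4* -0.81), and with the length correction the replicate block gave -0.062 for *Fth1*, -0.067 for *Ftl1*, 0.24 for *Aco1* and -0.061 for *Pcbp1*, with 1 gene called higher. The near-constant counts of *Fth1* limit what its fold change can show, and the low counts of *Ncoa4* limit the precision of its value. mRNA counts give no ferritin or IRP protein level.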
